A study of Homo sapiens with 15 samples.

Results

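GAST and CGA are the 2 hormone transcripts described here, out of 61552 genes in the counts table of an RNA-seq experiment on MDA-MB-468, an established human triple-negative breast cancer cell line with very high EGFR. They were chosen by symbol because both were high in the libraries treated with the peptide cSNX1.3, so their difference between cSNX1.3 and EGF alone is a description and carries no test. The study asked which EGF-dependent transcription needs nuclear EGFR and which needs its kinase, and sequenced 15 libraries in 5 groups of 3. In 3 of the groups, parental cells were starved of serum for 12 h and stimulated with 10 ng per mL EGF, either alone (EGF), with 10 uM cSNX1.3, a peptide that blocks the interaction of EGFR with Sorting Nexin 1 and lowers nuclear EGFR, or with 15 uM of the EGFR kinase inhibitor erlotinib, for 12 h. The other groups were lines in which endogenous EGFR was knocked down by lentiviral shRNA induced with 1 mM IPTG and an EGFR-GFP fusion was transfected, either wildtype (WT) or with basic residues of the nuclear localization sequence changed to acidic ones (ΔNLS), and both were treated with EGF. The dose and time of EGF for these lines were not given in the sources used here, and neither was the number of clones behind each line. The WT and ΔNLS libraries differ from the parental ones in line, transduction, transfection and possibly treatment at the same time, and these cannot be told apart. WT and ΔNLS are themselves separate lines, so the mutation cannot be told apart from other differences between them, EGFR transcript level included. Nothing in the labels says that replicates came from separate cultures, so every p-value measures the spread between these samples, which may be technical.

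Gastrin is a peptide hormone made by G cells of the stomach, where it drives acid secretion through the receptor CCKBR, and it is cut from a larger precursor, trimmed, sulfated and amidated before release. The product of CGA is the alpha subunit shared by chorionic gonadotropin, luteinizing hormone, follicle-stimulating hormone and thyrotropin, which pairs with a beta subunit particular to each hormone and is normally made in placenta and pituitary. Both transcripts are known to appear ectopically in carcinomas, and both promoters have long been used as models of growth factor and cAMP control of transcription.

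The libraries held 22915676 to 35900649 assigned counts. The epithelial genes EPCAM, KRT8 and KRT18 were high in every library, ESR1, the estrogen receptor, was at 2.79 to 8.41 CPM (counts scaled to library size by edgeR's TMM factors over the 15 libraries), ERBB2 at 24.2 to 109 CPM and PGR, the progesterone receptor, at 0 counts throughout. PTPRC, a leukocyte marker, reached at most 7 counts. EGFR itself was at 4316 to 4960 CPM in EGF, 5757 to 6498 in cSNX1.3 and 4561 to 4988 in erlotinib. It was lower in the lines, at 1146 to 1449 CPM in WT and 1687 to 1745 in ΔNLS, and reads of the endogenous and the introduced gene were not told apart. In these bulk samples, fewer cells that express a transcript and less of it per cell cannot be told apart.

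GAST (ENSG00000184502) lies on chr17:41712331-41715969, plus strand, of GRCh38, with 3 exons that span 465 bases of transcript in GENCODE 44. CGA (ENSG00000135346) lies on chr6:87085498-87095106, minus strand, with 1984 bases of exon over its annotated transcripts and 710 bases in 4 exons of the canonical transcript. Neither gene overlaps another annotated gene on either strand, which matters here because the reads were counted without regard to strand. The 250 bases before each start, from RefSeq on GRCh38.p14, are shown because the promoters are built differently and the transcripts were high together in cSNX1.3; chr17:41712081-41712330 (plus strand) and chr6:87095107-87095356 (minus strand) are both written 5′ to 3′ in the direction of transcription. Capitals mark GC-rich boxes (GGGCGG, GGGGCGGGG or GGGGTGGGG on either strand) in GAST and the cAMP response element TGACGTCA in CGA.
GAST: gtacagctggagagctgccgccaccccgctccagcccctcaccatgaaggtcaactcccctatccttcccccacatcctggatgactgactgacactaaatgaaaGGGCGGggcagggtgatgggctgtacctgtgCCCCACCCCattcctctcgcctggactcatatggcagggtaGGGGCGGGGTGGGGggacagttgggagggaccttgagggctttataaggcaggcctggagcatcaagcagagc
CGA: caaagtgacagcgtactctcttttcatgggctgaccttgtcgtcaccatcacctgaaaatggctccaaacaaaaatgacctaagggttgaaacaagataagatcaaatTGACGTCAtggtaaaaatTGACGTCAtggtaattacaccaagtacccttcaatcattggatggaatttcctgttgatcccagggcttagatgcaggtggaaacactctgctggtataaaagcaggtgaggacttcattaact

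TGACGTCA, the palindrome bound by CREB and ATF factors, stood in the CGA promoter in 2 copies, at 142 to 135 and 124 to 117 bases before the start, and had no match in the GAST window. Of 35116 RefSeq promoters of the same length, 1.65% held it at least once on either strand. GAST instead held GGGGCGGGG, a GC box of the kind bound by SP factors, at 73 to 65 bases before the start, which 15.1% of promoters hold. It also held 2 copies of GGGGTGGGG, at 114 to 106 on the opposite strand and at 68 to 60 overlapping the GC box, against 5.75% of promoters with any copy. The shorter GGGCGG matched at 145 to 140 and at 72 to 67, the latter inside the GC box, and 42.6% of promoters hold it. The G and C content was 61.6% in GAST and 42.0% in CGA, against a median of 58.0%. TATAAA, the TATA box, had 1 match in each gene, on the opposite strand at 33 to 28 in GAST and on the coding strand at 29 to 24 in CGA, as in 10.7% of promoters. CANNTG, the E box, had 3 matches in each, and 61.8% of promoters hold it. The GATA motif AGATAA matched once in CGA at 156 to 151, with 9.17% of promoters holding it, and neither TGANTCA, the AP-1 site found in 6.57% of promoters, nor GCCNNNGGC, the AP-2 site found in 19.8%, had a match in either gene. These matches describe letters in the window and say nothing of binding.

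GAST was a rare transcript in EGF, with 8, 5 and 4 counts in replicates 1, 2 and 3, or 0.328, 0.191 and 0.148 CPM. In cSNX1.3 the counts were 37, 45 and 53, or 1.69, 1.88 and 1.93 CPM. Every cSNX1.3 library was above every EGF library. The coefficient of variation was 6.82% in cSNX1.3 and 42.4% in EGF, where counts this few make it large by themselves. The erlotinib libraries held 8, 4 and 2 counts, or 0.237, 0.164 and 0.0705 CPM, and the last of these is under the 3 counts set as the floor of detection. Erlotinib and EGF overlapped. The WT line held 103, 139 and 132 counts, or 3.41, 4.40 and 3.65 CPM, and ΔNLS held 39, 31 and 43, or 1.12, 0.954 and 1.53 CPM. Every ΔNLS library was below every WT library and above every EGF library.

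CGA was well covered, with 217, 273 and 250 counts in EGF, or 8.91, 10.4 and 9.24 CPM. In cSNX1.3 it reached 1321, 1168 and 1318 counts, or 60.5, 48.7 and 48.1 CPM, higher in each library than in any other library of the experiment. Erlotinib libraries held 159, 70 and 85 counts, or 4.71, 2.86 and 2.996 CPM, all under the lowest EGF library. WT held 266, 422 and 407 counts, or 8.79, 13.3 and 11.3 CPM, and ΔNLS 308, 250 and 286 counts, or 8.88, 7.70 and 10.2 CPM. These last groups overlapped each other and EGF.

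**Figure D1:**
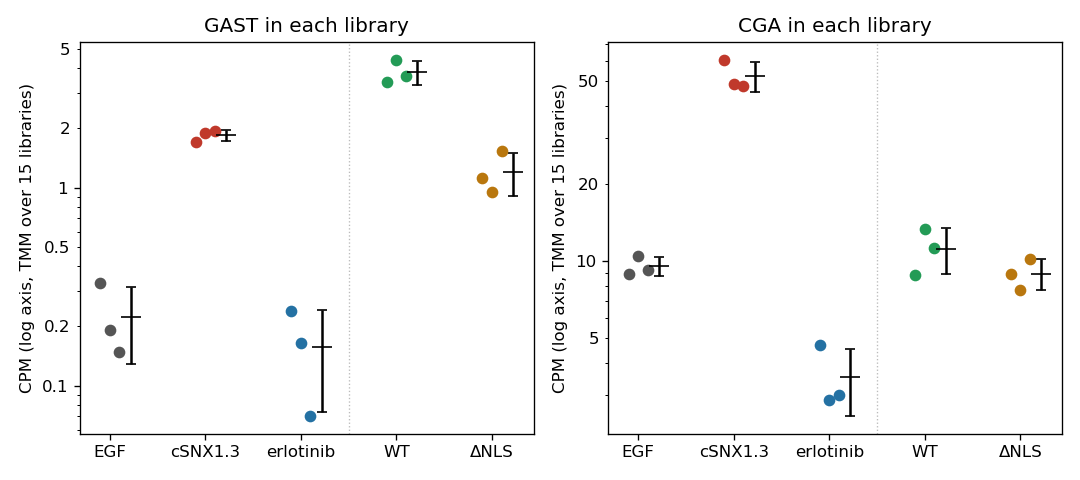
CPM of GAST (left) and CGA (right) on a log axis in each of the 15 libraries, by group; points are libraries and the horizontal marks with bars are the mean ± SD of 3 libraries. GAST was higher in WT (3.82 CPM) than in cSNX1.3 (1.83 CPM), whereas CGA was at 52.4 CPM in cSNX1.3 and 11.1 CPM in WT.

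The order of the groups differed between the hormones. For GAST it was WT at 3.82 ± 0.516 CPM (mean ± SD, n = 3), cSNX1.3 at 1.83 ± 0.125, ΔNLS at 1.202 ± 0.295, EGF at 0.222 ± 0.0943 and erlotinib at 0.157 ± 0.0835, and the libraries of neighbouring groups overlapped only for EGF and erlotinib. For CGA the order was cSNX1.3 at 52.4 ± 6.98 CPM, WT at 11.1 ± 2.28, EGF at 9.53 ± 0.796, ΔNLS at 8.91 ± 1.24 and erlotinib at 3.52 ± 1.03, with overlap of WT with EGF and of EGF with ΔNLS. Relative to the EGF mean, GAST in WT was 17.2-fold and in ΔNLS 5.41-fold, while CGA was 1.17-fold in WT and 0.936-fold in ΔNLS. These ratios set lines against parental cells and were not tested, for the reason given above.

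Per kilobase of exon, CGA was the more abundant hormone transcript in parental cells: the ratio of CGA to GAST was 10.04 in EGF, 6.70 in cSNX1.3 and 5.26 in erlotinib, counted on the union of annotated exons. In ΔNLS the ratio was 1.74. In WT it was 0.683 on the union of exons but 1.91 on the canonical transcripts, so the order of the pair in WT depends on which CGA length is used. With canonical lengths the other ratios were 28.0 in EGF, 18.7 in cSNX1.3, 14.7 in erlotinib and 4.86 in ΔNLS.

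The fitted difference between cSNX1.3 and EGF, the contrast on which the pair was selected, was a log2 fold change of 3.04 (SE 0.39, 8.22-fold) for GAST and 2.46 (SE 0.15, 5.51-fold) for CGA. Of 15738 genes tested in the parental libraries, 956 differed between cSNX1.3 and EGF at an adjusted p under 0.05 by edgeR's quasi-likelihood test, or 6.07%, and both hormones were among them by the way they were chosen. Without cSNX1.3 replicate 2, EGF replicate 1 or EGF replicate 3, that count of genes was 526, 531 and 592. Among called rises that averaged 1 CPM or more and whose groups did not overlap, GAST and CGA had the highest log2 fold changes, and the next gene below them was SH2D1B, an adaptor of SLAM-family receptors in natural killer cells, at 2.45 (SE 0.38), from 0.341 to 1.87 CPM. Without those conditions, GAST ranked 4 and CGA 9 by log2 fold change among the 15738 genes tested. GAST passed the filter on low counts only through the cSNX1.3 libraries. Set against erlotinib, the cSNX1.3 libraries were higher by 3.47 (SE 0.40, 11.1-fold) for GAST and 3.87 (SE 0.16, 14.6-fold) for CGA, again as a description.

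CGA was lower in erlotinib than in EGF, and GAST was at the edge of detection in both. CGA fell by 1.40 on the log2 scale (SE 0.17, 2.65-fold; adjusted p = 6.57e-06 by edgeR's quasi-likelihood test), from 9.53 to 3.52 CPM and with no overlap between the groups. In this comparison 44.0% of tested genes passed, so a call by itself was common. GAST had a log2 fold change of -0.43 (SE 0.54), given without a test because GAST entered this fit only through the cSNX1.3 libraries that chose it, and with 2 to 8 counts per library in both groups a difference was not detectable at this depth. It was -0.06 without EGF replicate 1, -0.09 without erlotinib replicate 3, -0.66 without EGF replicate 3 and -0.90 without erlotinib replicate 1. The EGF libraries that served as control here are the ones against which the pair was selected in cSNX1.3.

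The comparison of ΔNLS with WT used no library that had a part in choosing the pair. GAST fell by 1.68 on the log2 scale in ΔNLS (SE 0.20, 3.20-fold; adjusted p = 5.11e-06 by edgeR's quasi-likelihood test), from 3.82 to 1.202 CPM, lower in every ΔNLS library than in any WT library. Of 15805 genes tested, 41.4% passed in this comparison. CGA had a log2 fold change of -0.33 (SE 0.14) and did not pass (adjusted p = 0.0789 by edgeR). It passed with no filter on low counts, where the log2 fold change was -0.34 (adjusted p = 0.0238 by edgeR), and without WT replicate 1, the lowest WT library for CGA, where it was -0.47 (adjusted p = 0.0118 by edgeR).

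**Figure D2:**
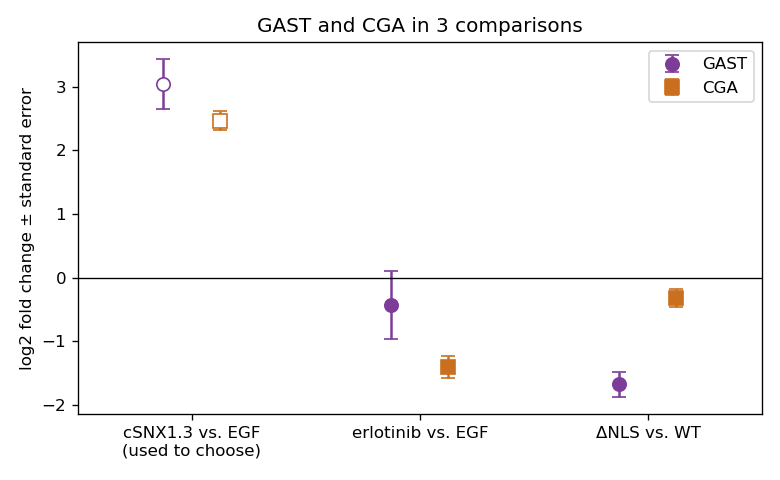
Fitted log2 fold change ± standard error of GAST (circles) and CGA (squares) in 3 comparisons; open symbols mark the contrast that chose the genes. Both were positive in cSNX1.3 vs. EGF (3.04 and 2.46), and the 2 differences that passed a test were CGA in erlotinib vs. EGF (-1.40) and GAST in ΔNLS vs. WT (-1.68).

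The next question was whether the hormones changed alike in ΔNLS vs. WT and in erlotinib vs. EGF. It was tested as the ΔNLS effect minus the erlotinib effect over all 15 libraries. For CGA this difference was 1.09 (SE 0.25; adjusted p = 0.00121 by edgeR's quasi-likelihood test), that is, the fall of CGA in erlotinib vs. EGF was larger than its difference in ΔNLS vs. WT. Of 16524 genes tested, 44.7% passed this test. For GAST the difference was -1.24 (SE 0.57, adjusted p = 0.0854 by edgeR), which did not pass. It passed without EGF replicate 1 at -1.60 (adjusted p = 0.0464 by edgeR) and without erlotinib replicate 3 at -1.59 (adjusted p = 0.0318 by edgeR), each with few GAST counts behind the erlotinib effect. The EGF libraries behind the erlotinib effect are those against which the pair was selected. The p-values of this difference are therefore not free of that choice for either hormone.

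Partners of the hormones were scarcely present. The 11 other glycoprotein hormone subunits, which include the beta subunits that CGA needs to form a hormone, all stayed under the filter on low counts, 5 of them at 0 in every library and 9 at no more than 3 counts in any. The exceptions were LHB, the beta subunit of luteinizing hormone, with up to 4 counts in a cSNX1.3 library, and CGB7, a chorionic gonadotropin beta gene, with 1 to 5 counts in erlotinib; the CGB and LHB genes are near-identical copies, so reads among them are uncertain. LHCGR and FSHR, the gonadotropin receptors, were at 0 counts throughout and TSHR, the thyrotropin receptor, reached 1 count. On the gastrin side, CCKBR reached 1 count in any library and CCKAR, the receptor for cholecystokinin, was at 0. CCK, the sister hormone of gastrin, had 5 to 8 counts in EGF, 9 to 28 in cSNX1.3, 1 to 11 in erlotinib, 17 to 27 in WT and 13 to 23 in ΔNLS. The cSNX1.3 libraries were above the EGF libraries for CCK too, but it was tested only in ΔNLS vs. WT, at a log2 fold change of -0.32 (SE 0.32) that did not pass.

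Enzymes that turn prohormones into hormones were expressed in part. Of 15 such genes 12 could be tested. Those passing the test were 1 higher and 0 lower in cSNX1.3 and 2 higher and 2 lower in erlotinib. In ΔNLS 3 were higher and 3 lower. All genes passed at 6.07%, 44.0% and 41.4% in these comparisons, and a difference of the list from these shares was not tested. The median log2 fold changes of the list were 0.22, -0.13 and -0.07 in the same order, against medians of all genes under 0.01. PCSK1 and PCSK2, the convertases of endocrine granules, had at most 5 and 2 counts in any library, whereas PAM, which amidates peptide ends, had 1706 to 3018. FURIN, the ubiquitous convertase, rose by 0.34 (SE 0.09) in cSNX1.3, from 41.2 to 51.9 CPM, and fell by 0.27 (SE 0.09) in erlotinib. In erlotinib the convertase PCSK4 rose by 1.502 and the carboxypeptidase CPD by 0.60, while TPST1, which sulfates tyrosines, fell by 0.996. In ΔNLS, QPCT, which closes N-terminal glutamines, fell by 0.86, CPD fell by 0.62 and CPE, the carboxypeptidase of secretory granules, fell by 0.62. PCSK6 rose by 0.41, TPST1 by 0.31 and TPST2 by 0.23 in the same comparison.

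Of 26 transcription factors reported to act on either promoter, 19 could be tested. In cSNX1.3 vs. EGF 0 passed by edgeR's quasi-likelihood test and 0 by DESeq2, with 1 lower at an unadjusted p under 0.05, at a median log2 fold change of 0.00. In erlotinib 6 were higher and 2 lower, with GATA5 at 0.71, the CREB relative ATF2 at 0.55, the homeobox factor DLX3 at 0.55, the zinc finger factor ZNF148 at 0.37 and SP3, which binds GC boxes, at 0.32 among the rises, and GATA3 at -0.36 and TFAP2C at -0.23 the falls. In ΔNLS 6 were higher and 5 lower. TFAP2C, an AP-2 factor, rose by 0.62, JUND by 0.52, LHX2 by 0.45, CREM by 0.45 and MEN1, which encodes menin, by 0.33. GATA3 was at -0.71, GATA2 at -0.50, PITX1, a pituitary and hindlimb homeobox factor, at -0.41, CREB1, the cAMP response factor, at -0.38 and ZNF148 at -0.21, the 5 falls. All of these were changes of less than 1 on the log2 scale. The share passing was 0% in cSNX1.3, 42.1% in erlotinib and 57.9% in ΔNLS, beside 6.07%, 44.0% and 41.4% of all genes.

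Most of the other peptide hormones were silent. Of 77 such genes, 43 had no more than 3 counts in any library, 17 of them 0 throughout. Of 22 tested in the parental cells, 4 rose and 0 fell in cSNX1.3, and 2 rose and 12 fell in erlotinib, at median log2 fold changes of 0.10 and -0.54. The 4 that rose in cSNX1.3 were STC1 at 0.76 (SE 0.10, 62.4 to 105 CPM) and STC2 at 0.60 (SE 0.10, 184 to 278 CPM), the secreted stanniocalcins, ADM, the vasodilator adrenomedullin, at 0.66 (SE 0.12, 19.3 to 30.5 CPM), and INHBA, a subunit of activin, at 0.48 (SE 0.10, 31.9 to 44.4 CPM). Their rises were smaller than those of GAST and CGA, which were chosen for a rise in this comparison. Among the falls under erlotinib were STC1 at -1.63, INHBA at -1.87, APLN, which encodes apelin, at -2.90 and the neuropeptide gene GAL at -2.57. AGT, angiotensinogen, rose by 2.55 and EDN2, an endothelin, by 1.10. In ΔNLS 9 rose and 5 fell of 21 tested, at a median of 0.21 (6 fell by DESeq2). STC2 rose by 1.46, AMH, anti-Müllerian hormone, by 1.44, NMU, neuromedin U, by 1.35, APLN by 1.21 and STC1 by 0.90, and INHBA fell by 1.496. INHBB was at -0.59, EDN1 at -0.45 and NUCB2, the nesfatin precursor, at -0.32, each passing. Over this list 18.2% passed in cSNX1.3, 63.6% in erlotinib and 66.7% in ΔNLS, beside 6.07%, 44.0% and 41.4% of all genes.

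Genes of the cell types that normally make these hormones were examined as whole lists. The pituitary list had 9 of 10 genes at no more than 3 counts in any library, with PRL, GH1 and FSHB at 0, and its summed level was between 0.0296 and 0.331 CPM across libraries. The neuroendocrine list of 14 genes summed to 28.7 to 33.0 CPM in EGF, 41.3 to 47.0 in cSNX1.3, 12.8 to 13.3 in erlotinib, 18.2 to 22.3 in WT and 25.9 to 26.9 in ΔNLS, while its lineage factor NEUROD1 had at most 3 counts. ENO2, a neuronal enolase that tumor cells also make, was the larger part of that sum in the other groups but 4.98 of 13.2 CPM in erlotinib, by group means. It rose by 0.61 (SE 0.12) in cSNX1.3, fell by 2.14 (SE 0.13) in erlotinib and rose by 0.38 (SE 0.11) in ΔNLS. VGF, a granule peptide precursor, fell by 1.34 in erlotinib and rose by 0.87 in ΔNLS, and NCAM1, an adhesion molecule, rose by 1.36 in erlotinib. Of the neuroendocrine genes tested, 1 of 5 was higher in cSNX1.3, and 1 was higher and 2 lower of 5 in erlotinib. In ΔNLS 3 of 7 were higher. All genes passed at 6.07%, 44.0% and 41.4% in these comparisons, in either direction. A difference of so short a list from these shares was not tested.

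The trophoblast list of 18 genes had a lower summed level in ΔNLS than in WT, and the difference was mostly that of PAPPA and PSG5. CGA, the member of the pair made in placenta, was at -0.33 in that comparison and did not pass. The list summed to 27.4 to 29.4 CPM in WT, 9.48 to 13.6 in ΔNLS, 4.56 to 6.03 in EGF, 5.91 to 6.30 in cSNX1.3 and 3.23 to 4.09 in erlotinib. Of 6 genes tested in ΔNLS vs. WT, 4 were lower and 1 higher, at a median log2 fold change of -1.16, beside 41.4% of all genes called in either direction, and PSG9 was at -0.005 on this scale. Of 5 tested in the parental cells 0 passed in cSNX1.3 and 1 was lower in erlotinib, at medians of 0.12 and -0.63. All genes passed at 6.07% and 44.0% in these comparisons. In cSNX1.3, 1 was higher and 1 lower at an unadjusted p under 0.05 by edgeR, and 0 passed by DESeq2. PAPPA, a metalloproteinase of pregnancy serum, fell by 2.53 in ΔNLS (SE 0.13, 13.4 to 2.30 CPM) and fell by 2.84 in erlotinib (SE 0.33). The pregnancy-specific glycoprotein genes PSG5 (7.78 to 2.97 CPM) and PSG4, which share much sequence with their relatives so that their counts are uncertain, fell in ΔNLS, at -1.40 and -1.28. The gene that rose there was PGF, placental growth factor, by 2.48 (SE 0.52), named after its values were seen because it went the other way. Of the 18 genes, ERVFRD-1, CSH1, HSD3B1, PAPPA2 and PAGE4 were at 0 throughout and ERVW-1, PSG3 and CSH2 at no more than 3 counts. GCM1, a trophoblast lineage factor, had 1 to 6 counts in EGF and up to 3 elsewhere, and CYP19A1, the aromatase gene, had up to 8. A link of this list to either hormone was not tested.

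Over all 9 lists, which hold 169 different genes, 6 of 63 tested passed in cSNX1.3 vs. EGF (9.52%), 30 of 63 in erlotinib vs. EGF (47.6%) and 39 of 66 in ΔNLS vs. WT (59.1%), beside the 6.07%, 44.0% and 41.4% of all genes.

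**Figure D3:**
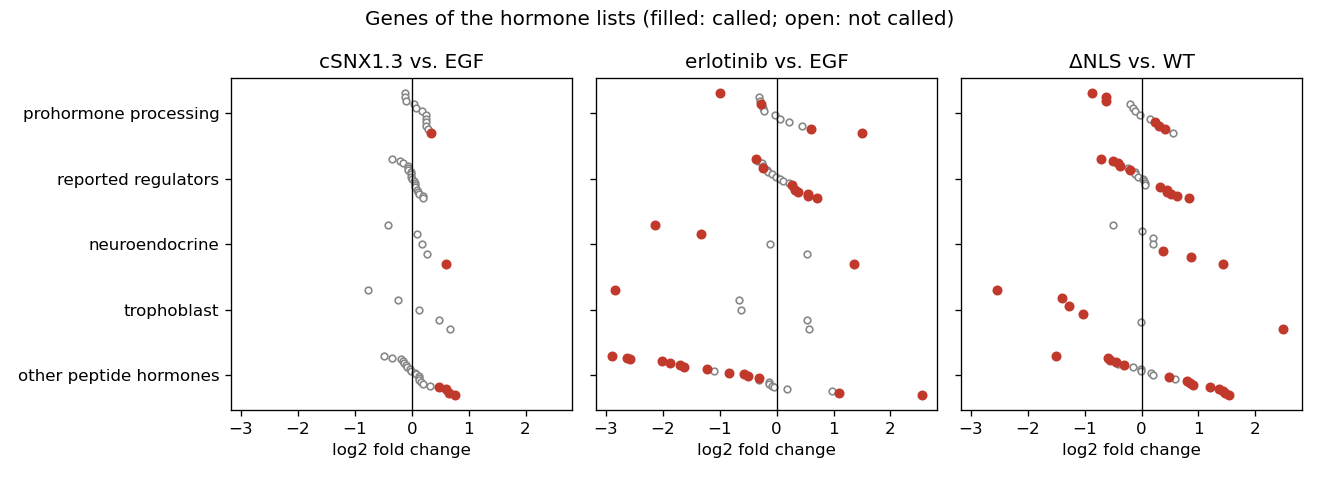
Log2 fold change of each tested gene of 5 lists (rows) in 3 comparisons (panels); filled red points passed at an adjusted p under 0.05 and open points did not. In cSNX1.3 vs. EGF the filled points are few and below 1. Of 22 other peptide hormones tested in erlotinib vs. EGF, 2 rose and 12 fell, beside 44.0% of all genes passing. Of 21 tested in ΔNLS vs. WT, 9 rose and 5 fell, beside 41.4% of all genes.

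Genes near GAST and CGA were compared to see whether the pair moved with its surroundings. Within 500 kb of GAST, 69 other genes are annotated and 27 could be tested in parental cells, where 2 were higher and 1 lower in cSNX1.3, beside 6.07% of all genes, at a median log2 fold change of 0.02. The 3 were keratin genes, KRT13 at 0.94 (SE 0.23), KRT34 at 0.54 (SE 0.12) and KRT14 at -0.45 (SE 0.12), which lie at -207, -330.0 and -125.4 kb from the GAST start, a minus sign meaning upstream; by DESeq2 1 was higher and 1 lower, KRT13 not passing. The nearest tested neighbours, EIF1, a translation initiation factor gene at -23.4 kb, and HAP1, a huntingtin-associated protein gene at 22.3 kb, had values of 0.06 (SE 0.09) and 0.69 (SE 0.24), and neither passed. In erlotinib 7 neighbours were higher and 8 lower of 27, beside 44.0% of all genes called, at a median of -0.08, with KRT13 at -2.67, KRT34 at -1.88 and KRT17 at -1.49. In ΔNLS 4 were higher and 9 lower of 26 tested, beside 41.4% of all genes, at a median of -0.07, with KRT34 at -3.10, KRT13 at -3.02 and KRT16 at -1.16. KRT13 and KRT34 rose in cSNX1.3, the direction for which GAST was chosen, and fell in ΔNLS as GAST did and in erlotinib. Other neighbours did not share these directions: KRT14 fell in cSNX1.3, and EIF1 rose in ΔNLS at 0.22 (SE 0.07) and passed. Shared control of these genes and GAST was not tested. Around CGA, 27 genes are annotated and 5 could be tested. ORC3, a subunit of the origin recognition complex at -495 kb, was lower in cSNX1.3 at -0.42 (SE 0.10) and higher in erlotinib at 0.71 (SE 0.09), and SLC35A1, a sialic acid transporter gene, was higher in erlotinib at 0.73 (SE 0.15). ZNF292, the nearest gene tested, at -56.7 kb, had values of 0.07, 0.04 and -0.12 in the 3 comparisons and passed in none. In ΔNLS vs. WT 0 neighbours of CGA passed by edgeR's quasi-likelihood test and 0 by DESeq2, with 2 lower at an unadjusted p under 0.05.

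**Figure D4:**
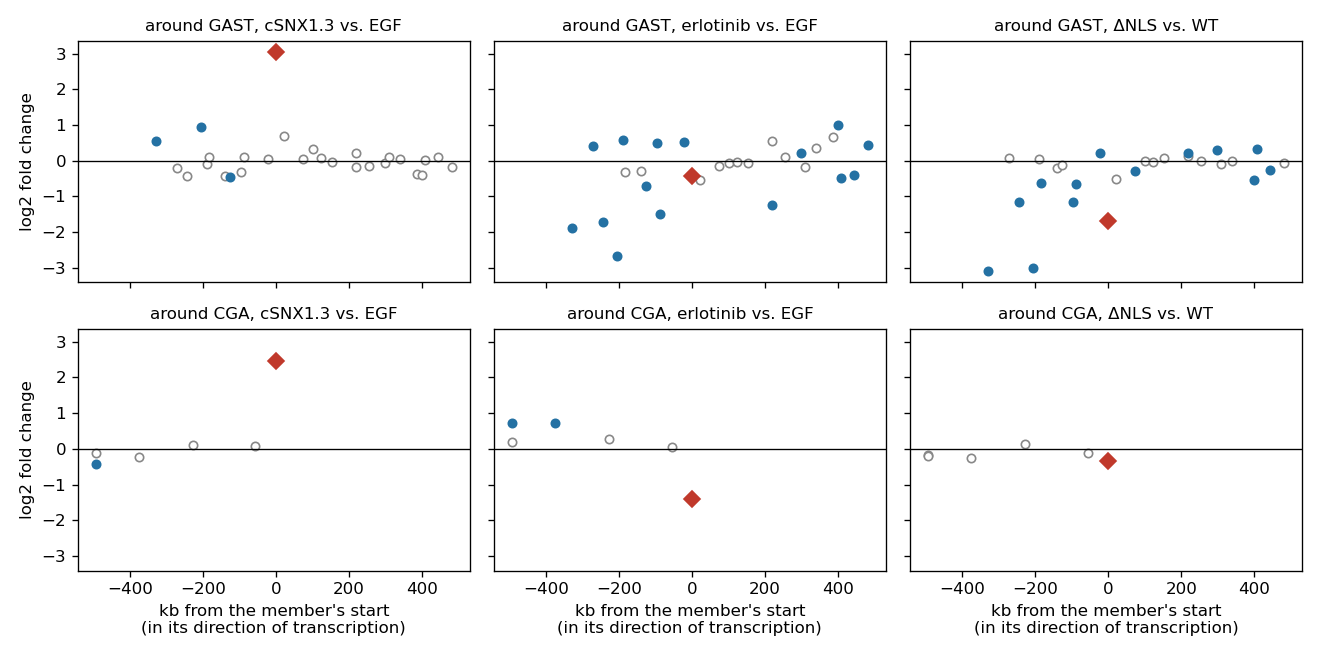
Log2 fold change of GAST and CGA (red diamonds) and of tested genes within 500 kb (filled, passed; open, not) against distance in kb from the hormone gene's start, for 3 comparisons. The hormones were chosen on cSNX1.3 vs. EGF, so their height there (3.04 and 2.46) was given by the choice. No tested neighbour exceeded 0.94 in that comparison.

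Across the 15 libraries the pair had a Pearson r of 0.60 on log2 CPM, which placed CGA at rank 1242 for GAST and GAST at rank 2361 for CGA among 13402 genes averaging 1 CPM or more. Among the genes most like GAST were SCNN1D, an epithelial sodium channel subunit, at 0.932, ARHGAP10 at 0.931, ECM1, which encodes extracellular matrix protein 1, at 0.931, and P3H2, a collagen prolyl hydroxylase, at 0.930. Their levels were highest in WT, as those of GAST were, with ECM1 at 22.2 CPM in WT, 11.4 in ΔNLS, 13.1 in cSNX1.3, 6.64 in EGF and 2.82 in erlotinib. The genes most like CGA were C16orf74 at 0.963, NDRG1, a gene of hypoxia and differentiation, at 0.960, MSN, which encodes the membrane linker moesin, at 0.955, the long noncoding RNA LUCAT1 at 0.955 and the metallothionein MT2A at 0.947. These were highest in cSNX1.3 and lowest in erlotinib, as CGA was, with NDRG1 at 393 CPM in cSNX1.3, 221 in EGF, 97.6 in erlotinib, 188 in WT and 161 in ΔNLS. The 15 points fall in 5 groups and share libraries between genes, so each r is a description. By Spearman's rho the 5 nearest genes of each hormone were entirely other ones.

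**Figure D5:**
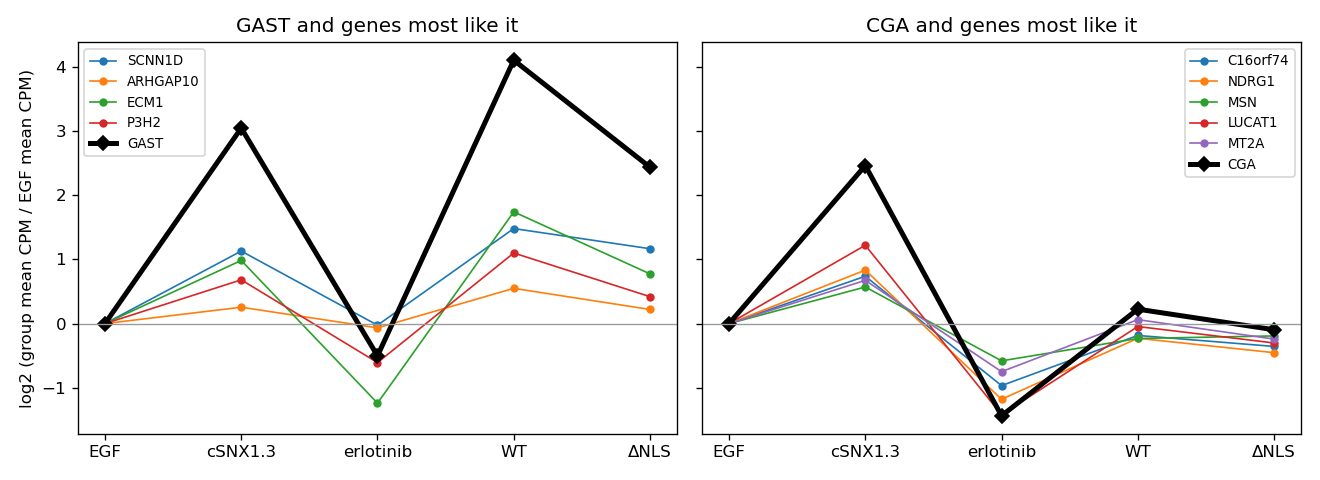
Group means of GAST (left, black) and CGA (right, black) with genes among the 5 of highest Pearson r to each, as log2 of the ratio to the EGF mean; lines join the 5 groups of 3 libraries. CGA runs from 3.52 CPM in erlotinib to 52.4 CPM in cSNX1.3 and NDRG1 from 97.6 to 393. The hormones were chosen for a rise in cSNX1.3, so a wider range than the genes that follow them is in part given by the choice.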

How the data were processed

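Libraries of MDA-MB-468 cells were sequenced as paired ends. The authors trimmed reads with Trim Galore, aligned them to GRCh38 with STAR and counted them per gene with featureCounts, without strand; the table they deposited holds raw counts for 61552 Ensembl genes, of which 61399 have a symbol in the annotation used here, GENCODE 44. The release used by the authors is not given in the sources used here, and the submitters' processing notes name DESeq2.

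Genes, lists and tests were chosen with earlier results of these data known. Counts were filtered with filterByExpr, scaled by TMM and fitted with robust edgeR 4.0.16 quasi-likelihood models in R 4.3.3, the 9 parental libraries together, WT with ΔNLS, and all 15 for the difference of effects, with Benjamini-Hochberg adjustment over all genes tested and a threshold of 0.05. CPM were scaled over 15 libraries. The scripts were tested on simulated data. Alternatives were DESeq2 1.42.0, its size factors, other filters, other library sets, a replicate block and each library left out. Named are the pair, list genes that passed with a mean of at least 1 CPM (at most 5 per list and direction), hormone partners, the 5 genes of highest r, called neighbours within 500 kb and the gene just outside the selection. The 153 unnamed genes stayed in the fits. A few genes that this rule names are not reported here. Replicate numbers were checked for pairing: correlations of deviations ran from -0.200 to 0.248. Replicate 3 of cSNX1.3 and of erlotinib matched EGF replicate 3 best, and every other library matched another number best. With 3 libraries per group this check cannot exclude pairing. Libraries held 22915676 to 35900649 counts, and the floor of 3 counts came to 0.0829 to 0.137 CPM.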

Additional observations from a re-analysis of the deposited data

Results flagged for a closer look

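CGA responded differently in 2 comparisons with separate controls: the ΔNLS effect minus the erlotinib effect was 1.09 on the log2 scale and passed edgeR's quasi-likelihood test (adjusted p = 0.00121), with CGA lower in 3 of 3 erlotinib libraries than in any EGF library. The EGF control also had a part in choosing the pair. GAST moved in opposite directions in cSNX1.3 vs. EGF (3.04) and ΔNLS vs. WT (-1.68), with no overlap of libraries in either; the difference between these effects was not tested, since the former chose the gene. CGA likewise moved in opposite directions with the peptide (2.46 against EGF) and with the inhibitor (-1.40 against EGF), comparisons which share the EGF libraries, and this difference was not tested either.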

How the results depend on the processing

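No result changed direction under the alternatives run. CGA in ΔNLS vs. WT passed with no filter on low counts (-0.34; adjusted p = 0.0238 by edgeR) and ranged from -0.47 to -0.18 with 1 library left out (adjusted p = 0.0118 to 0.320 by edgeR), while the ΔNLS effect minus the erlotinib effect of GAST ranged from -1.60 to -0.77 (adjusted p = 0.0318 to 0.413 by edgeR). GAST in ΔNLS vs. WT ranged from -1.87 to -1.54 and CGA in erlotinib vs. EGF from -1.68 to -1.28, and both passed throughout. The 956 genes called in cSNX1.3 vs. EGF became 1444 in a fit of all 15 libraries, 470 at an adjusted p under 0.01 and 526 to 892 with 1 library left out; the 526 came from leaving out cSNX1.3 replicate 2. By Spearman's rho, 0 of the 5 genes most like GAST and 0 of the 5 most like CGA were kept; the cause was not tested. A replicate block gave -1.67 for GAST in ΔNLS vs. WT and -1.43 for CGA in erlotinib vs. EGF. It changed no call of either hormone, and whether the replicate numbers pair samples is not known. GAST could not be tested between the parental groups with at least 10 counts required in every library or with only the EGF and erlotinib libraries, because too few counts remained: 2 to 8 counts per library limit what can be said of GAST under erlotinib, whose log2 fold change ranged from -0.90 to -0.06 with 1 library left out.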
